A study of Mus musculus with 6 samples.

Results

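Mx1, Mx2, Ifi44, Bst2, Ifitm1, Ifitm2, Ifitm3, Samd9l, Xaf1 and Ifi35 encode antiviral effectors, proteins that cells make in larger amounts under interferon and that act on viruses at different steps. These 10 genes were listed by name, and all 10 were found among the 55414 gene identifiers of the count table. The table holds RNA-seq counts of the mouse line AY-mICC, used in work on intrahepatic cholangiocarcinoma, the bile duct cancer that arises within the liver. The control group, shCon, has 3 libraries and the labelled genotype control. The other group, shCopa, has 3 libraries and the labelled genotype Copa knockdown, and its name carries the usual prefix of a short hairpin RNA. All 6 libraries share the cell line and the same serum-containing medium, and the labels list no drug, interferon or virus for either group. The labels do not say how many hairpins or clones were used, what construct the controls carry, which mouse strain the line comes from, or whether the replicates were separate cultures. The p-values therefore measure the spread between these libraries, which may be technical.

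Interferons bind a receptor on the cell surface and activate the kinases JAK1 and TYK2. These set off a transcription factor complex that holds STAT2 and IRF9 and binds a DNA element called the interferon-stimulated response element (ISRE) near the start of target genes. Many epithelial and tumour cells hold some of these genes at a basal level, and the closely related IRF factors read similar DNA. Copa encodes a subunit of COPI, the coat of vesicles that travel from the Golgi back to the endoplasmic reticulum.

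Library totals ran from 19634938 to 24546204 estimated counts, and levels below are in CPM (counts-per-million on library sizes scaled by TMM), given as mean ± SD over n = 3. Copa lay between 420 and 527 CPM in the shCon libraries and between 182 and 187 CPM in the shCopa libraries, so all libraries matched their labels. Of 10 markers of bile duct epithelium 8 were tested, 0 rose, 5 fell, Krt7 among them, and 3 did not pass. By the same threshold, given below, 18.2% of all tested genes rose and 18.4% fell. The summed level of the 10 markers was 11387 to 14465 CPM in shCon and 8498 to 8977 CPM in shCopa. Krt19 averaged 563 CPM in shCon and 537 CPM in shCopa, and the epithelial markers Epcam and Cldn4 were under 1 CPM in every library. Library shCon 1 correlated with shCon 2 and 3 at r = 0.973 and 0.972 across genes, against 0.990 between shCon 2 and shCon 3. Compared with the mean of shCon 2 and 3, shCon 1 had higher levels of genes with short transcripts and lower levels of genes with long ones. The median difference on the log2 CPM scale was 0.60 for transcripts up to 1000 bases and -0.42 for those from 5001 bases.

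Across all genes, a change was called at an adjusted p under 0.05 (edgeR quasi-likelihood test, Benjamini-Hochberg adjustment over 14807 genes). Of the 10 effectors, 9 had enough counts to be tested. Of these 9, 8 rose in shCopa, where 18.2% of all tested genes rose, and none fell, where 18.4% of all tested genes fell. The effectors were chosen with earlier results of these data known, so the comparison with all genes is no independent test of them. At an unadjusted p under 0.05, 1 effector was lower, Ifitm2, and DESeq2 and limma-voom also called 0 as lower. The groups did not overlap for all 9: 8 were higher in every shCopa library (27.2% of all tested genes were) and Ifitm2 was lower in every one (26.9% were). The median log2 fold change of the 9 was 1.55, against -0.01 over all tested genes. The tested effectors differ in how far they moved, from an 11.4-fold rise of Ifi44 to a level of Ifitm2 at 69.6% of control. RNA from whole cultures cannot tell a change in every cell from a change in the number of cells that express a gene.

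**Figure D1:**
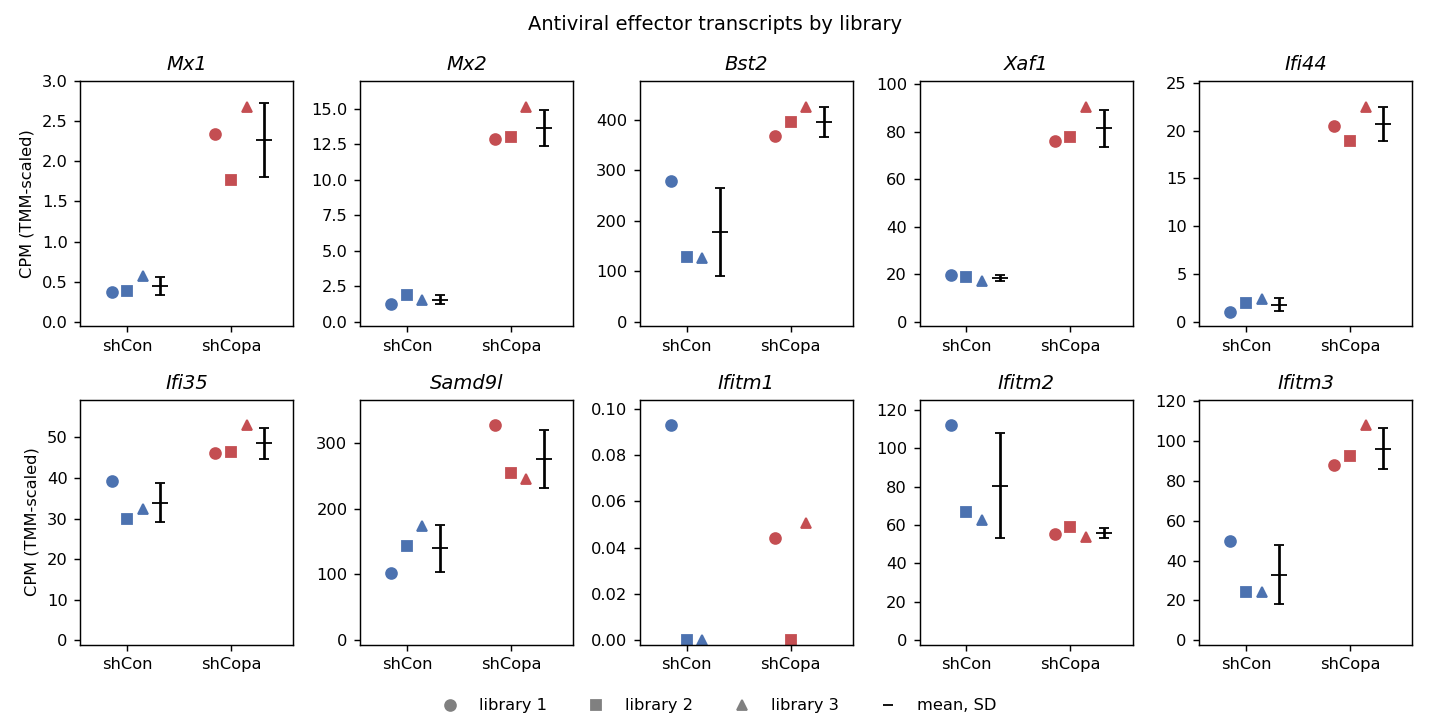
Level of each effector in each library, in CPM on TMM-scaled library sizes (each panel has its own linear axis). Circles, squares and triangles are libraries 1, 2 and 3 of shCon (blue) and shCopa (red), and the black bar is the mean with the SD, left out for Ifitm1. Mx1, Mx2, Xaf1 and Ifi44 are far apart between the groups, Bst2, Ifitm2 and Ifitm3 have a shCon 1 value well above shCon 2 and 3, and Ifitm1 has at most 2 counts in a library.

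The Mx genes encode dynamin-like GTPases that assemble on viral nucleocapsids. Mouse MX1 acts in the nucleus on influenza viruses, and mouse MX2 acts in the cytoplasm. Many laboratory mouse strains carry defective copies of both genes, so RNA from these genes need not give protein, and the annotation used here classes Mx2 as a polymorphic pseudogene. In shCon 1 to 3 the Mx2 (ENSMUSG00000023341) level was 1.25, 1.89 and 1.52 CPM, and in shCopa 1 to 3 it was 12.8, 13.0 and 15.1 CPM. All shCopa libraries were several times above all shCon libraries. Its mean rose 8.73-fold, from 1.55 ± 0.319 to 13.6 ± 1.28 CPM (log2 fold change 3.13 ± 0.19 SE, edgeR adjusted p = 5.957e-05).

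Mx1 (ENSMUSG00000000386) was scarcer, with 8, 9 and 14 counts in shCon 1 to 3 and 53, 41 and 53 counts in shCopa 1 to 3. These counts are 0.372, 0.386 and 0.575 CPM in shCon and 2.35, 1.77 and 2.68 CPM in shCopa, again without overlap. Mx1 rose 5.02-fold (log2 fold change 2.33 ± 0.32 SE, edgeR adjusted p = 0.00136). In every library Mx2 had more counts than Mx1. The log2 ratio of Mx2 to Mx1 counts was 1.76 ± 0.43 in shCon and 2.59 ± 0.23 in shCopa (SD, n = 3 each), a difference of 0.83 with groups that did not overlap. An exact two-sided permutation test gave p = 0.1, the smallest that 3 against 3 libraries allow (adjusted over 4 ratios, p = 0.133). The genes are related in sequence: in shCopa 1 the deposited estimates are 53.11 for Mx1 and 289.89 for Mx2, whose fractional parts add up to 1 whole count.

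Ifi44 (ENSMUSG00000028037), an interferon-induced gene with antiviral activity in cultured cells, moved most of the 9. Its level was 1.07, 1.93 and 2.38 CPM in shCon 1 to 3, and 20.5, 19.0 and 22.5 CPM in shCopa 1 to 3. The lowest shCopa library was thus well above the highest shCon library. Ifi44 rose 11.4-fold, from 1.79 ± 0.668 to 20.7 ± 1.77 CPM (log2 fold change 3.51 ± 0.26 SE, edgeR adjusted p = 0.000127), and its log2 fold change lay at the 99.2nd percentile of all tested genes. Its neighbour and close relative Ifi44l had 1 count in the 6 libraries, in shCon 3.

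Xaf1 (ENSMUSG00000040483) encodes XIAP-associated factor 1, which binds the caspase inhibitor XIAP and favours cell death, and which is induced by interferon. It showed little spread among the controls, at 19.7, 18.6 and 17.2 CPM in shCon 1 to 3. In shCopa 1 to 3 it stood at 76.3, 77.6 and 90.5 CPM. Xaf1 rose 4.40-fold, from 18.5 ± 1.26 to 81.5 ± 7.85 CPM (log2 fold change 2.14 ± 0.11 SE, edgeR adjusted p = 3.80618e-05). Its partner Xiap had 88.5, 121 and 130 CPM in shCon 1 to 3, against 134, 123 and 115 CPM in shCopa 1 to 3. Those ranges overlap, and the log2 fold change of Xiap was 0.13 ± 0.15 (SE, edgeR adjusted p = 0.528), which turned to -0.02 without shCon 1 and to -0.04 with offsets for transcript length and GC content.

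The IFITM proteins sit in the plasma membrane and in endosomes and hinder the fusion of viral with cellular membranes. IFITM3 works mainly in endosomes, where influenza viruses enter. In the mouse genome Ifitm1, Ifitm2 and Ifitm3 are neighbours on chromosome 7, together with Ifitm5 and Ifitm6. Of the 3 listed IFITM genes, Ifitm3 rose, Ifitm2 did not pass and Ifitm1 could not be tested.

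Ifitm3 (ENSMUSG00000025492) measured 49.98, 24.2 and 24.4 CPM in shCon 1 to 3, against 88.3, 92.6 and 108 CPM in shCopa 1 to 3. The high control is shCon 1, which was still below every shCopa library. Ifitm3 rose 2.93-fold, from 32.9 ± 14.8 to 96.3 ± 10.4 CPM (log2 fold change 1.55 ± 0.28 SE, edgeR adjusted p = 0.005). Ifitm2 (ENSMUSG00000060591) measured 112, 66.6 and 62.8 CPM in shCon 1 to 3, against 55.4, 58.9 and 53.7 CPM in shCopa 1 to 3. All shCopa libraries were below all shCon libraries, and shCon 2 and 3 lay close to them. The log2 fold change of Ifitm2 was -0.52 ± 0.22 (SE), which did not pass (edgeR adjusted p = 0.0988). Without shCon 1 it was -0.21 and without shCon 3 -0.68, and both passed as lower (edgeR adjusted p = 0.0116 and 0.0488). Those fits called 4122 of 15273 and 2536 of 15232 tested genes as lower. With the offsets for length and GC content the log2 fold change of Ifitm2 was -0.44 and passed as well (edgeR adjusted p = 0.00389). The fit with offsets called 3990 of 14807 tested genes as lower, against 18.4% in the main fit.

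Ifitm1 (ENSMUSG00000025491) had 2, 0 and 0 counts in shCon 1 to 3 and 1, 0 and 1 counts in shCopa 1 to 3. A count of 0 allows up to 3 counts, or 0.122 to 0.153 counts-per-million of the unscaled total of a library, a limit that covers counting error only. No change in Ifitm1 was detectable at this depth, and no fold is given. Ifitm5, which is known from bone, and Ifitm6 had at most 5 counts and 1 count in any library, and Ifitm7 at most 7. Ifitm10 stood at 5.36 ± 1.66 CPM in shCon and 7.12 ± 0.755 CPM in shCopa and did not pass (log2 fold change 0.41 ± 0.23 SE, edgeR adjusted p = 0.203). Without shCon 1 it rose (log2 fold change 0.69, edgeR adjusted p = 0.00246), in a fit that called 4317 of 15273 tested genes as higher.

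Ifitm2 and Ifitm3 have annotated transcripts of nearly the same length, 655 and 678 bases, so their counts can be set side by side within a library. Ifitm3 made up 30.9%, 26.7% and 28.0% of the summed Ifitm2 and Ifitm3 counts in shCon 1 to 3, and 61.4%, 61.1% and 66.8% in shCopa 1 to 3. The 95% Wilson intervals reached at most 32.4% in shCon and started at 59.5% in shCopa. Ifitm2 was the more abundant of the pair in every control library and Ifitm3 in every knockdown library. The log2 ratio of Ifitm2 to Ifitm3 went from 1.33 ± 0.15 to -0.78 ± 0.20 (SD, n = 3 each), a difference of -2.11, or 4.30-fold. The exact two-sided permutation test gave p = 0.1, the smallest possible with 3 against 3 libraries (adjusted p = 0.133). The ratio does not depend on scaling between libraries, and shCon 1, which was high in both genes, had a ratio of 1.16 beside 1.46 and 1.36 in shCon 2 and 3. The sum of Ifitm2 and Ifitm3 was 113 ± 42.2 CPM in shCon and 152 ± 9.04 CPM in shCopa, groups that overlap through shCon 1 at 162 CPM (exact two-sided permutation test, p = 0.4). IFITM genes are similar in sequence, and how the authors' counting divided shared reads is not given in the sources used here. Nearly all estimates of this pair were whole numbers, except 1362.21 and 1062.24 for Ifitm2 in shCopa 2 and 3.

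**Figure D2:**
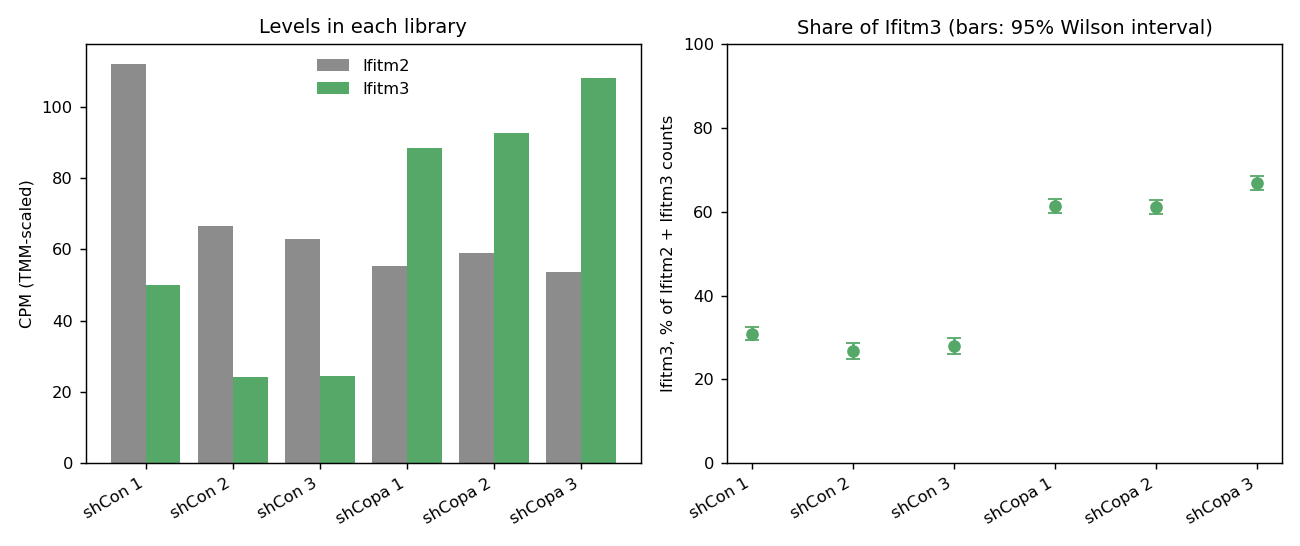
Left, levels of Ifitm2 (grey bars) and Ifitm3 (green bars) in each library, in CPM on TMM-scaled library sizes. Right, Ifitm3 as a percentage of the summed Ifitm2 and Ifitm3 counts of that library, with 95% Wilson intervals that cover counting error only. The share lies between 26.7% and 30.9% in the shCon libraries and between 61.1% and 66.8% in the shCopa libraries.

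The DNA around the starts of the IFITM genes is shown because this group splits between a gene that rose, a gene that was lower without passing, and a gene that was nearly silent. RefSeq windows on build GRCm38.p6, from 250 bases before to 50 bases after the annotated start, were found for 8 of the 10 effectors and not for Mx1 and Mx2. They were searched on both strands for an ISRE core, written GAAA, then any 2 bases, then GAAA, and for a shorter IRF core, written AA, then any 2 bases, then GAAA. Every match to the ISRE core holds a match to the IRF core. An ISRE core was in 3.44% of all 32851 windows and an IRF core in 23.9%. The stretches below run from position -70 to 30 around the start, 5′ to 3′ on the strand of each gene, with matches to either motif in capitals. They lie at chr7:140968006-140968105 (plus strand) for Ifitm1, chr7:140955932-140956031 (minus strand) for Ifitm2 and chr7:141010715-141010814 (minus strand) for Ifitm3.

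Ifitm1: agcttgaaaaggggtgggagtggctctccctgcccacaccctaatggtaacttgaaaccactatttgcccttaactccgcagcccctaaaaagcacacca
Ifitm2: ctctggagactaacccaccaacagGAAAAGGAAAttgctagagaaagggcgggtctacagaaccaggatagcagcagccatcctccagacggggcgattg
Ifitm3: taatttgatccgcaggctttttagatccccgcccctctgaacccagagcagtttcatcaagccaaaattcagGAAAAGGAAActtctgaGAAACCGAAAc

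Ifitm3 held 2 ISRE cores, at positions 3 to 12 and 20 to 29, and 0.225% of all windows held 2 or more. Ifitm2 held 1, at positions -46 to -37, with the same 10 letters as the first in Ifitm3. Ifitm1 held neither motif in its window. Among the other effectors, Bst2 held 2 overlapping ISRE cores at positions -130 to -115, while Xaf1, Ifi44, Ifi35 and Samd9l held no ISRE core and between 1 and 3 IRF cores. In all, 3 of the 8 windows held an ISRE core and 7 of 8 an IRF core. A match describes the letters of the reference genome and is neither a tested site nor a cause. The 30 bases around the closest pair of matches are given for Bst2 at chr8:71537576-71537605 and for Ifi44 at chr3:151749940-151749969, both on the minus strand, the effector with the highest level per length and the one with the largest rise. In Ifi44 both matches read on the strand opposite to the gene.

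Bst2: cagGAAAATGAAACTGAAAggctgcagttt
Ifi44: agagTTTCAGTTTTCGTTTcccgagcagga

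Bst2 (ENSMUSG00000046718) encodes tetherin, a membrane protein that holds budding enveloped viruses on the cell that released them. Per transcript length it had the highest level of the effectors in both groups. The controls shCon 1 to 3 had 280, 128 and 126 CPM of Bst2, and shCopa 1 to 3 had 368, 396 and 426 CPM in shCopa 1 to 3. The groups did not overlap, but shCon 1 was more than double the other controls. Bst2 rose 2.23-fold, from 178 ± 88.0 to 397 ± 29.3 CPM (log2 fold change 1.15 ± 0.30 SE, edgeR adjusted p = 0.0216). This call rests on all libraries but shCon 1: without any 1 of the other 5 the adjusted p lay between 0.0567 and 0.0791, with log2 fold changes from 0.95 to 1.21. Without shCon 1 the log2 fold change was 1.64 (adjusted p = 4.47846e-13).

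Samd9l (ENSMUSG00000047735) encodes a large cytoplasmic protein that restricts poxviruses and limits cell growth. Its level was 103, 143 and 174 CPM in shCon 1 to 3, and 327, 254 and 246 CPM in shCopa 1 to 3. Here shCon 1 was the lowest control and shCopa 1 the highest knockdown library, and the groups did not overlap. Samd9l rose 1.97-fold, from 140 ± 35.8 to 275 ± 44.6 CPM (log2 fold change 0.98 ± 0.20 SE, edgeR adjusted p = 0.0085).

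Ifi35 (ENSMUSG00000010358) encodes a protein that forms a complex with NMI, another interferon-induced protein, and it had the smallest rise. Levels were 39.2, 29.9 and 32.4 CPM in shCon 1 to 3, and 46.2, 46.5 and 53.0 CPM in shCopa 1 to 3. Ifi35 rose 1.43-fold (log2 fold change 0.52 ± 0.13 SE, edgeR adjusted p = 0.0157), and the call was lost without shCon 2, shCopa 2 or shCopa 3 (adjusted p = 0.0546, 0.0501 and 0.0728). Nmi moved by a similar amount, from 22.1 ± 2.16 to 30.1 ± 1.92 CPM (log2 fold change 0.45 ± 0.11 SE, edgeR adjusted p = 0.0176). Nmi also lost its call without any 1 library other than shCon 1 and shCopa 2, and with the replicate number as a block (adjusted p = 0.0615).

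**Figure D3:**
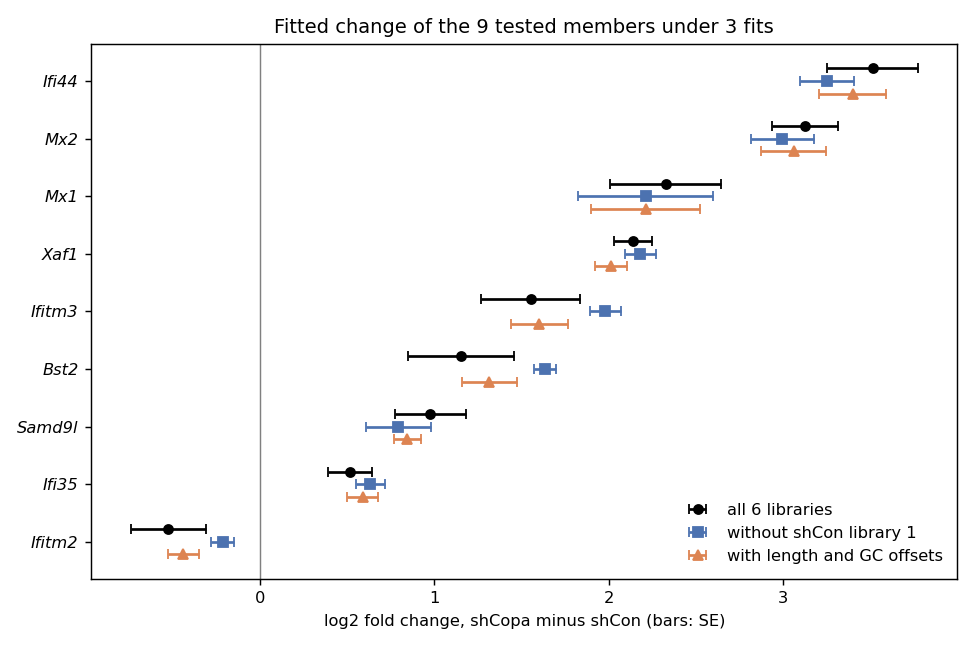
Fitted log2 fold change, shCopa minus shCon, of the 9 tested effectors, with the SE as bars, from all 6 libraries (black circles), without shCon 1 (blue squares) and with offsets for transcript length and GC content (orange triangles). The 3 fits give the same direction for each gene. Bst2 goes from 1.15 to 1.64 and Ifitm3 from 1.55 to 1.98 without shCon 1, and Ifitm2 from -0.52 to -0.21.

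The position of shCon 1 differed among the effectors. The 3 with the shortest annotated transcripts were higher in shCon 1 than in the mean of shCon 2 and 3: Bst2 (792 bases) by 1.13, Ifitm3 (678 bases) by 1.04 and Ifitm2 (655 bases) by 0.79 on the log2 CPM scale. Samd9l, with 5330 bases, was lower by -0.62 and Ifi44, with 4064 bases, by -0.95. The 859 tested genes of at most 1000 bases had a median of 0.60 and the 3173 of at least 5001 bases one of -0.42, so Bst2, Ifitm3, Ifitm2 and Samd9l lay on the same side as the median of their length class and further from 0. Not all effectors lay near the median of their class: Ifi44 lay well below that of the 5064 genes from 3001 to 5000 bases (-0.07), and Mx2, with 2476 bases, stood at -0.41 where the 3164 genes from 2001 to 3000 bases had a median of 0.18. With offsets that level transcript length and GC content in each library, 8 effectors still rose and Ifitm2 passed as lower. Over all 14807 tested genes, that fit called 3131 as higher and 3990 as lower.

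**Figure D4:**
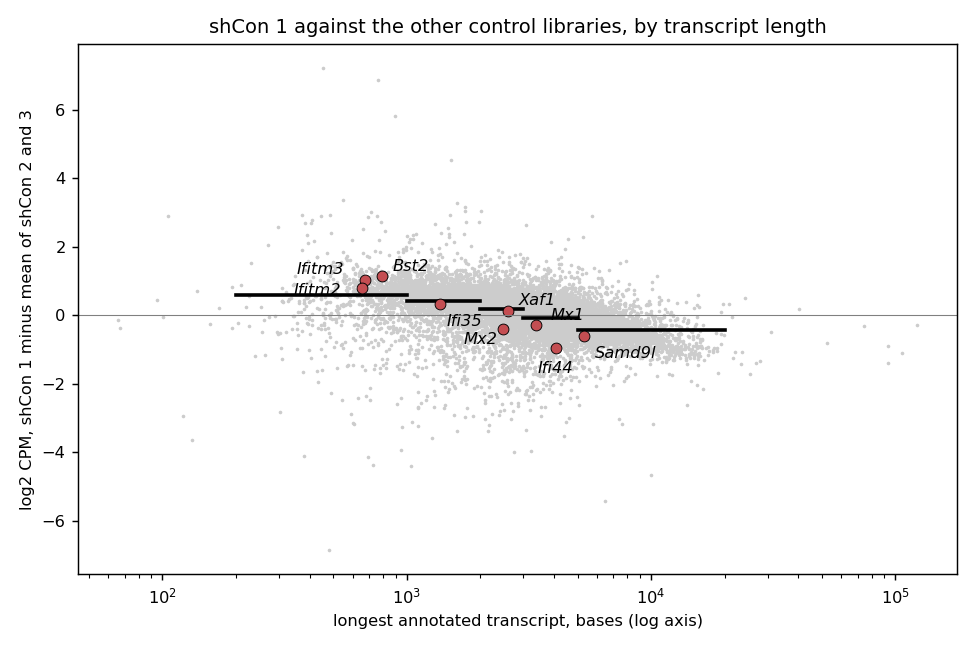
Log2 CPM in shCon 1 minus the mean of shCon 2 and 3 (vertical axis) against the longest annotated transcript of each tested gene in bases (log axis). Grey points are all tested genes with a known length, black bars the medians of 5 length classes, falling from 0.60 to -0.42, and red points the 9 tested effectors. Bst2, Ifitm2 and Ifitm3 lie above 0 at the short end, and Samd9l and Ifi44 below 0 at the long end.

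Levels of different genes were compared per length, as TPM (transcripts-per-million) computed from the longest annotated transcript. In shCon the order was Bst2 (573 ± 222 TPM), Ifitm2 (316 ± 74.0), Ifitm3 (124 ± 42.6), Samd9l (45.2 to 90.9 in the 3 libraries), Ifi35 (64.9 ± 3.71), Xaf1 (18.7 ± 1.03), Mx2 (1.67 ± 0.460), Ifi44 (1.19 ± 0.519), Mx1 (0.349 ± 0.111) and last Ifitm1. The libraries of Samd9l and Ifi35 overlapped, and so did those of Mx2 and Ifi44. In shCopa Ifitm3 (397 ± 36.7 TPM) moved above Ifitm2 (239 ± 12.3), and Xaf1 (87.7 ± 7.24) came to overlap Ifi35 (99.6 ± 6.60). Bst2 stayed highest at 1399 ± 80.3 TPM, and Mx2 (15.4 ± 1.24) and Ifi44 (14.2 ± 1.14) still overlapped. The 3 effectors below 2 TPM in shCon that were tested, Mx1, Mx2 and Ifi44, had the 3 largest log2 fold changes. The 5 above 60 TPM in shCon had the 5 smallest, and Xaf1 lay between. The shCon level is also the denominator of the fold change, so level and fold are not independent. These cut-offs were not set in advance.

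**Figure D5:**
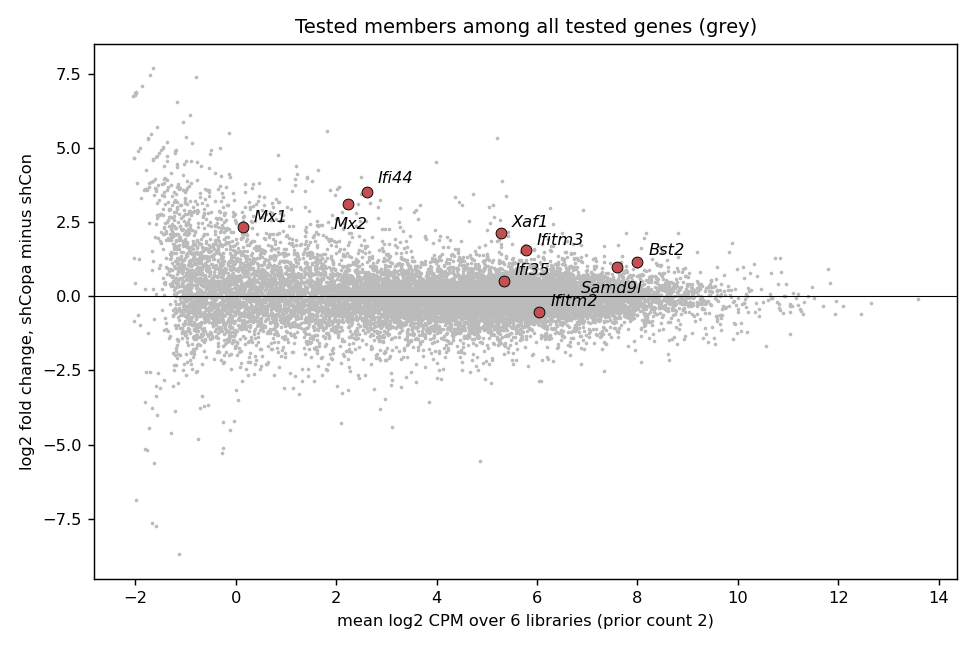
Log2 fold change, shCopa minus shCon (vertical axis), against the mean log2 CPM over the 6 libraries (horizontal axis), for all 14807 tested genes in grey and the 9 tested effectors in red. Ifi44, Mx2 and Mx1 lie high on the left at 3.51, 3.13 and 2.33, Bst2 and Samd9l further right near 1, and Ifitm2 is the effector below 0.

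The genes that carry an interferon signal and the other interferon-induced effectors were described from lists written out by function. These lists were chosen with earlier results of these data known, so their counts are no independent support for the effectors' rise. Of 49 other antiviral effectors 47 were tested, and 41 of them rose, 0 fell and 6 did not pass in edgeR. Their median log2 fold change was 1.45, and the shares over all tested genes were 18.2% higher and 18.4% lower. At an unadjusted p under 0.05, 1 was lower, Ly6e, and DESeq2 and limma-voom called 0 as lower. Oas3, which makes an activator of the nuclease RNase L, rose 22.9-fold, Gbp3, a guanylate-binding protein, 5.57-fold and Ifit1, which binds foreign RNA, 14.6-fold. Ly6e, which like the IFITM genes acts on viral entry, stood at 2280 ± 247 CPM in shCon and 1921 ± 66.8 CPM in shCopa. It passed as lower without shCon 1 and with the length and GC offsets. Those fits called 4122 of 15273 and 3990 of 14807 tested genes as lower. Promoter windows were found for 40 of the 49 listed effectors, and an ISRE core was in those of 22 and an IRF core in those of 31. A gene was counted if any of its windows matched. The 3.44% and 23.9% given above are shares of single windows, so the units differ.

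Of 24 genes of interferon signal transduction, all tested, 8 rose, 4 fell and 12 did not pass, with a median log2 fold change of 0.10. Over all tested genes 18.2% rose and 18.4% fell, so the share that fell was near that of all genes. The transcription factors Irf7 and Irf9 rose 5.84-fold and 3.32-fold, and Usp18, an inhibitor of the interferon receptor and a protease of ISG15, rose 6.34-fold. Stat2, which with IRF9 is part of the complex that binds the ISRE, rose 2.37-fold. The genes that fell were Ptpn1, a tyrosine phosphatase of JAK kinases (log2 fold change -1.01), Ifngr1, a chain of the interferon gamma receptor (-0.88), Socs3, an inhibitor of cytokine receptors (-1.02), and Ifnlr1, a chain of the interferon lambda receptor (-0.85). Without shCon 1, 10 rose and 6 fell, in a fit where 4317 of all 15273 tested genes rose and 4122 fell.

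Transcripts of the interferons themselves were nearly absent. Of 21 interferon genes in the table, 15 had no count in any library, and the remaining 6 together had 13 counts over the shCon libraries and 8 over the shCopa libraries. For interferon beta, Ifnb1 had at most 2 counts in a library of either group. None had enough counts to be tested, and a difference was not detectable at this depth.

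Interferon-induced genes are also expressed by immune cells, whose markers were examined. The summed level of 10 macrophage and myeloid markers lay between 277 and 287 CPM in shCon and between 157 and 170 CPM in shCopa. Of the 5 tested, 2 rose, Lyz2 and Ptprc, 2 fell, Csf1r and Cd14, and Cd68 did not pass. Most of the sum came from Csf1r (165 CPM in shCon, 87.9 CPM in shCopa) and Cd14 (102 and 50.3 CPM). The sum therefore follows these 2 genes, while Lyz2 rose from 1.46 to 8.21 CPM. Ptprc, the leukocyte antigen CD45, went from 0.0280 ± 0.0243 to 1.09 ± 0.168 CPM, Tyrobp had no count in any library, and Adgre1 stood at 0 in shCon and 0.0292 CPM in shCopa. No T and NK cell marker had enough counts to be tested, and the 8 summed to at most 0.487 CPM in a library. Of 5 dendritic cell markers, Flt3, Itgax and Siglech had no count and 1 was tested, Zbtb46, which fell from 16.1 to 12.0 CPM; the list summed to 14.8 to 17.9 CPM in shCon and 11.5 to 12.8 CPM in shCopa. Of 6 endothelial markers 2 were tested and rose, Kdr and Vwf, with a summed level of 0.411 to 0.601 CPM in shCon and 2.52 to 4.55 CPM in shCopa. Of 8 hepatocyte markers 3 were tested and 1 rose, Alb, with a summed level of 10.1 to 15.2 CPM in shCon and 25.9 to 26.8 CPM in shCopa. Of 8 fibroblast markers 3 were tested, 0 rose and 1 fell. Beside the counts of all these lists, 18.2% of all tested genes rose and 18.4% fell. The part of these marker changes in the rise of the effectors was not tested.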

How the data were processed

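RNA-seq of 6 libraries, 3 shCon and 3 shCopa by sample title, was used. The authors deposited estimated counts, 1 row per Ensembl gene, to 2 decimals. The tools HISAT2 2.0.5, Trimmomatic, featureCounts, HTSeq and DESeq2 and the build GRCm39 are named per the submitters' processing notes, without their roles. Annotation release, strand setting and counting program: not given in the sources used here. If counting ignored strand, antisense reads would add to a gene. Estimated counts were rounded. Symbols, matched for 52081 identifiers, and transcript lengths came from GENCODE M21.

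The test across all genes was edgeR 4.0.16 in R 4.3.3 with TMM, filterByExpr, robust quasi-likelihood fits and Benjamini-Hochberg adjustment. SEs were derived from the F statistic. Ratios of related genes used counts plus 0.5 and exact permutation tests; 2 of the 4 involve Ifitm1, whose counts were too few, and their values are not given. The fit was tested on simulated data. Alternatives were other scalings and filters, DESeq2 1.42.0, limma-voom (limma 3.58.1), the replicate number as a block, a threshold of 0.01, each library left out, and offsets fitted on transcript length and GC content, known for 99.8% of tested genes. The members and lists were chosen with earlier results of these data known. Named genes were the 10 members, Copa, 7 relatives, and of each list the 3 with the smallest adjusted p and those that fell; Stat2, Ly6e, Krt19, Krt7, Epcam, Cldn4 and other markers were named after their values were seen.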

Additional observations from a re-analysis of the deposited data

How the results depend on the processing

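Mx1, Mx2, Xaf1, Ifi44, Samd9l and Ifitm3 kept their direction and passed under all 16 alternatives. The number of effectors that rose ranged from 6 to 8 with 1 library left out, was 7 with no low-count filter (Bst2 lost, adjusted p = 0.106) and 6 at a threshold of 0.01 (Bst2 and Ifi35 lost). The number that fell was 1 with the length and GC offsets and from 0 to 1 with 1 library left out, in each case Ifitm2. The log2 fold change of Xiap was -0.0423 with the length and GC offsets and ran from -0.0192 to 0.23 with 1 library left out. Over all genes, 1590 rose and 1587 fell at a threshold of 0.01, and 3131 rose and 3990 fell with the length and GC offsets. With 1 library left out, from 1778 (without shCopa 3) to 4317 (without shCon 1) rose and from 1755 (without shCopa 3) to 4122 (without shCon 1) fell. The difference of the log2 ratio of Ifitm2 to Ifitm3 ran from -2.19 to -1.99 and that of Mx2 to Mx1 from 0.63 to 1.06 with 1 library left out. The cause of these shifts was not tested. Libraries with the same replicate number did not deviate together (r = -0.162, -0.0583 and -0.114), so the numbers give no pairing; with the replicate number as a block 8 effectors rose and 0 fell, and over all genes 1964 rose and 1939 fell. Depth limits Ifitm1, Mx1 in shCon and the interferon genes.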

Other observations

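The neighbours of the Mx and IFITM genes, taken in gene order from the RefSeq annotation of GRCm38.p6, moved in both directions. Beside Mx1 and Mx2, 14 of 16 flanking protein-coding genes were tested, and 3 rose (Pcp4, Prdm15 and Zbtb21), 5 fell and 6 did not pass, where 18.2% of all tested genes rose and 18.4% fell. The gene next to Mx1, Bace2, a protease, fell from 18.8 to 5.98 CPM (log2 fold change -1.65 ± 0.19 SE, edgeR adjusted p = 0.000735). The genes next to Mx2, the serine protease gene Tmprss2 and the kinase gene Ripk4, fell as well (log2 fold changes -1.37 and -1.17). Fam3b, which lies between the Mx genes, was too low to test. Dscam, which follows Bace2 on that side, did not pass.

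Beside the cluster from Ifitm5 to Ifitm6, 12 of 20 flanking genes were tested, and 1 rose, 5 fell and 6 did not pass. Among all tested genes, the shares were 18.2% higher and 18.4% lower. The gene that rose was Sigirr, an inhibitor of interleukin-1 receptor signalling, from 0.413 to 1.38 CPM (log2 fold change 1.74 ± 0.43 SE, edgeR adjusted p = 0.017). These neighbours were examined after the members' values were seen.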
